A study of Mus musculus with 46 samples.

Results

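Upper chandelier cells were compared with PV basket cells, the other parvalbumin class of interneuron in mouse frontal cortex. Members were chosen by the type prefix of each cell's name, which gave 80 upper chandelier cells in 5 libraries and 127 PV basket cells in 16 labelled libraries. The whole series holds 584 cells in 46 libraries and 7 cell types, and every library is titled WT. The remaining types are long-projecting, Martinotti, deep chandelier, interneuron-selective and CCK basket cells. All of their animals are labelled younger than every PV basket animal. The replicate test below fits all 7 types, so these types also enter its estimate of the spread between replicates. Single red fluorescent neurons were isolated from dissected and triturated slices, their polyA RNA was amplified linearly in 2 rounds, and cells were pooled under separate barcodes.

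The upper chandelier cells came from Nkx2.1-CreER; Ai14 mice and were taken at the border of layer 1 and layers 2/3 in infralimbic and prelimbic cortex. Tamoxifen on embryonic day 17.5 activated Cre in cells with an active Nkx2-1 promoter, and the Ai14 reporter then marked these cells and their descendants in red. Libraries 1 and 2 came from animal 13, a female aged 50 days. Libraries 3 to 5 came from animal 14, a female whose age is labelled 58 days for library 3 and 40 days for libraries 4 and 5, and library 3 alone carries the reporter label Ai15. The PV basket cells came from Pv-iresCre; Ai14 mice and all layers of frontal cortex, with animals 7 and 9 male (81 and 83 days) and animals 8 and 10 female (58 and 83 days). Pv-iresCre marks cells with an active Pvalb locus, whatever their shape, and the labels describe no treatment other than tamoxifen. The types were sequenced on different flow cells, so flow cell, age, layers sampled and sex cannot be told apart from type.

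Chandelier cells form rows of boutons on the axon initial segment of pyramidal neurons, the site where action potentials start. PV basket cells form their synapses on the soma and proximal dendrites. Both descend mainly from the medial ganglionic eminence under the transcription factor Nkx2-1, fire fast, and release GABA; calcium channels, synaptotagmins, potassium channels and adhesion molecules are known to set how such cells fire, release and choose a target.

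Library totals were 916788 to 2339398 counts in upper chandelier libraries. The 16 PV basket libraries formed 8 pairs with 1 index and adjacent lanes, 1 member labelled as from a male and the other as from a female, and the counts of a pair differed by 1.19 to 1.63 times the squared difference that sampling gives, whereas other pairs of PV basket libraries started at 7.58. Each lane pair was therefore summed and counted once, with totals of 1374658 to 4440593, and PV basket animals 7 and 8, and 9 and 10, were summed as 1 replicate each. Cells of a single library were close to sampling noise as well, with median ratios per library of 1.22 to 1.54 in upper chandelier and 1.03 to 1.25 in PV basket libraries, against medians of 2.76 and 2.87 between cells of different libraries. All values below are therefore library sums in CPM (counts scaled to a common library total), and no share of cells is given. All 16 barcodes of the series occur in both types, and 0 lane pairs share a barcode between their 2 libraries.

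A pair of tests was used throughout. The replicate test set 2 upper chandelier animals against 2 PV basket replicates with edgeR's quasi-likelihood test in a fit over all 7 types, and called 41 of 15533 genes higher (0.264% of those tested) and 21 lower (0.135%) in upper chandelier cells at a Benjamini-Hochberg adjusted p under 0.05. The library test set the 5 upper chandelier libraries against the 8 PV basket lane pairs with the same method, and called 785 of 12029 genes higher (6.53%) and 786 lower (6.53%). Counts of called members in the gene lists below are to be read beside these shares. Libraries of 1 animal are not separate animals, so library p-values measure the spread between libraries and are too small as a statement about animals. The median log2 fold change over all genes tested was -0.03 in the replicate test and -0.04 in the library test. Of the 62 genes called by replicates, 60 were also called by libraries, and the other 2 (Rgs8 and Mir5117) were not tested there. For 847 genes (5.45%) the libraries of both types did not overlap, with upper chandelier libraries above in 517 (3.33%) and below in 330 (2.12%).

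Driver and marker genes were compared first. The marker lists were chosen with earlier results of these data known, so they are no independent check of the labels. Nkx2-1, the gene whose promoter drives the chandelier label, stood at 57.2, 88.5, 48.0, 48.7 and 108 CPM in upper chandelier libraries 1 to 5, against lowest 14.6, median 20.4 and highest 29.2 CPM in PV basket lane pairs. Every upper chandelier library lay above every PV basket lane pair (library test log2 fold change 1.70, SE 0.31, adjusted p = 0.00141; replicate test adjusted p = 0.397). Pvalb, which encodes the calcium buffer parvalbumin, was measured at 498, 527, 397, 154 and 418 CPM in upper chandelier libraries, against lowest 809, median 1009 and highest 1310 CPM in PV basket lane pairs. Upper chandelier libraries thus held Pvalb RNA at a lower level, without overlap (library test log2 fold change -1.41, adjusted p = 0.000727; replicate test adjusted p = 0.781).

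Of 7 chandelier markers, the library test called 6 higher and the replicate test 2 (Cpne5 and Pthlh). Their summed level was 1141 to 2102 CPM in upper chandelier libraries and 86.7 to 178 CPM in PV basket lane pairs. Vipr2, a receptor for vasoactive intestinal peptide, averaged 32.0 ± 20.8 CPM in upper chandelier cells and 0.217 ± 0.193 CPM in PV basket cells (SD, n = 2 each). Igsf11, an adhesion gene, was the marker that passed neither test: it averaged 30.4 ± 0.0955 CPM in upper chandelier and 40.1 ± 6.03 CPM in PV basket cells (SD, n = 2 each). Of 7 PV basket markers, 0 passed the replicate test, and the library test called 5 of the 6 it could test lower in upper chandelier cells, Pvalb, Syt2, Tac1, Lgi2 and Akr1c18. Without upper chandelier library 1 it called 3, with Tac1 and Lgi2 no longer under the threshold (adjusted p = 0.0553 and 0.0559), and Lgi2 passed in 5 of 13 fits without 1 library. The 7 markers summed to 244 to 825 CPM in upper chandelier libraries and 1782 to 2640 CPM in PV basket lane pairs. Lgi2 and Akr1c18 overlapped between the types, and Tpbg was near 0 in both types. The tachykinin gene Tac1 was uneven among upper chandelier libraries at 75.9, 183, 0, 0.799 and 0 CPM, against lowest 443, median 719 and highest 1465 CPM in PV basket lane pairs. In bulk sums of this kind, fewer cells with a transcript and less transcript per cell cannot be told apart.

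Among genes called by the replicate test the largest rise was in Kit, the receptor tyrosine kinase for stem cell factor. Kit stood at 288, 324, 461, 360.3 and 510.2 CPM in upper chandelier libraries 1 to 5, against lowest 0.225, median 1.59 and highest 14.6 CPM in PV basket lane pairs. All 5 upper chandelier libraries were far above all 8 lane pairs. Kit averaged 381 ± 95.4 CPM in upper chandelier cells and 3.15 ± 0.551 CPM in PV basket cells (SD, n = 2 each), 121-fold higher (replicate test log2 fold change 6.85, SE 0.66, adjusted p = 0.000776). Its ligand gene Kitl had the opposite pattern, with 0, 0, 0, 0 and 1.90 CPM in upper chandelier libraries and lowest 3.77, median 16.0 and highest 40.0 CPM in PV basket lane pairs. No upper chandelier library reached the lowest PV basket lane pair, and Kitl was lower by the library test (log2 fold change -5.31, SE 1.02, adjusted p = 0.00223) but not by the replicate test (adjusted p = 0.234).

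The promoters of this receptor and ligand pair are shown because the genes stand at opposite ends of the comparison, from RefSeq on GRCm38.p6, 250 bases before to 50 bases after the start site, 5′ to 3′ on the gene's strand. Capitals mark CAAGTG or its reverse complement CACTTG, core letters of sites bound by the NK2 homeodomain family to which Nkx2-1 belongs, searched on both strands.
Kit, chr5:75574737-75575036, + strand: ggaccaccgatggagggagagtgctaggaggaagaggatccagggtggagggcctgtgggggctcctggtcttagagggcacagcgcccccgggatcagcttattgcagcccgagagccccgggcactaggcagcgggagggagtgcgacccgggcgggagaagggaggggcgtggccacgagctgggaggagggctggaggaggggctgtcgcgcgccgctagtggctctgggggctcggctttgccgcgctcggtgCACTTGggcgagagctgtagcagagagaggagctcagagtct
Kitl, chr10:100015571-100015870, + strand: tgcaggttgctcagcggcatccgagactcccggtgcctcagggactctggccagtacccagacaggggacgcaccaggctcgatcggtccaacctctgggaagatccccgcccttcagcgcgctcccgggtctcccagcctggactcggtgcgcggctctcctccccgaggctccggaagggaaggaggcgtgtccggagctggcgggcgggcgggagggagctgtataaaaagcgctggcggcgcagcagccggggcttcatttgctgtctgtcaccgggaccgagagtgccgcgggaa
The Kit window, the first of 2 promoters listed for this gene, held 1 match and the Kitl window held none of these letters. The other Kit promoter is not shown. Such letters occur in 13.6% of 32851 listed promoters. Of the genes called by the replicate test with a listed promoter, 5 of 33 higher and 5 of 16 lower genes had a match, against 15.4% of all 27025 genes listed.

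Among the 14 leading genes higher in upper chandelier cells were several that act at synapses or in adhesion. Cpne5 encodes copine 5, a calcium-dependent membrane-binding protein, and stood at 191, 230.0, 194, 287 and 264 CPM in upper chandelier libraries, against lowest 1.36, median 3.07 and highest 5.65 CPM in PV basket lane pairs. Copine 5 RNA was thus 68.5-fold higher without overlap (replicate test log2 fold change 6.02, SE 1.15, adjusted p = 0.0349). Pthlh, which encodes parathyroid hormone-related peptide, was 35.0-fold higher at 463, 499, 552, 770.1 and 660.3 CPM in upper chandelier libraries and lowest 0, median 10.0 and highest 80.0 CPM in PV basket lane pairs (adjusted p = 0.0206, replicate test). Both are also on the marker list, whose genes were chosen with earlier results known. Hs3st4 encodes a heparan sulfate sulfotransferase and averaged 333 ± 172 CPM in upper chandelier cells and 8.85 ± 0.678 CPM in PV basket cells (SD, n = 2 each; adjusted p = 0.0157).

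The other leading higher genes included adhesion and transmission genes with 6.68-fold to 11.5-fold differences. Pcdh8, a protocadherin, averaged 360.1 ± 42.3 CPM in upper chandelier and 31.3 ± 5.74 CPM in PV basket cells. Rph3a, which encodes the Rab3 effector rabphilin-3A, averaged 100.4 ± 7.48 CPM in upper chandelier and 9.78 ± 0.516 CPM in PV basket cells. Elfn1, a postsynaptic adhesion gene that recruits presynaptic metabotropic glutamate receptors, averaged 253 ± 90.4 CPM in upper chandelier and 28.3 ± 2.56 CPM in PV basket cells (SD, n = 2 each for these genes). These genes, with the secreted olfactomedin Olfm3, the zinc finger gene Zfp804b and the neurite gene Nrsn1, passed the replicate test with adjusted p of 0.000776 (Nrsn1) to 0.0235 (Rph3a). Nrsn1 stood at 1067, 1391, 1336, 1512 and 1338 CPM in upper chandelier libraries and lowest 146, median 184 and highest 241 CPM in PV basket lane pairs. Adhesion genes called further down were Sdk1 (5.70-fold higher), Cntnap5b (5.69-fold) and the calsyntenin gene Clstn2 (5.00-fold), and the growth cone genes Gap43 and Basp1 were 5.29-fold and 4.57-fold higher. Of the Olfm3 counts, 50.7% lie in values that are not whole, so reads shared with other genes make it uncertain.

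On the lower side, Lypd6b, a Ly6-family gene whose relatives modulate nicotinic receptors, stood at 1.04, 1.71, 3.27, 2.40 and 3.17 CPM in upper chandelier libraries, against lowest 28.4, median 64.2 and highest 130.0 CPM in PV basket lane pairs. Lypd6b was 33.0-fold lower without overlap (replicate test log2 fold change -5.08, SE 0.93, adjusted p = 0.0320). Iqgap2, a cytoskeletal scaffold gene, was 12.3-fold lower, at 20.4 ± 11.9 CPM in upper chandelier and 251 ± 3.85 CPM in PV basket cells (SD, n = 2 each). Rasgrf2, a Ras exchange factor activated by calcium, was 9.75-fold lower at 125, 31.2, 28.4, 20.8 and 9.51 CPM in upper chandelier libraries and lowest 237, median 379 and highest 507 CPM in PV basket lane pairs. Slc24a2, which encodes a potassium-dependent sodium and calcium exchanger, was 7.59-fold lower at 210.0, 245, 46.9, 97.5 and 41.8 CPM in upper chandelier libraries and lowest 782, median 1155 and highest 1351 CPM in PV basket lane pairs. Upper chandelier libraries were uneven in both of these genes and still lay below every lane pair.

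Nefh, the heavy neurofilament subunit of thick axons, was 6.51-fold lower at 56.1, 26.1, 46.9, 39.1 and 12.7 CPM in upper chandelier libraries and lowest 114, median 212 and highest 281 CPM in PV basket lane pairs (replicate test adjusted p = 0.0330). The receptor phosphatase Ptprm was 5.95-fold lower (adjusted p = 0.0157), the amino acid transporter Slc6a15 4.94-fold, the planar polarity gene Prickle1 4.63-fold, and the semaphorin co-receptor Plxna2 4.61-fold. Tmem14c and Etl4 were 10.6-fold and 6.89-fold lower, and the splicing regulator Rbfox1 4.63-fold. For Etl4 67.3% and for Rbfox1 52.8% of counts lie in values that are not whole, so both are uncertain. The adherens junction gene Ctnna2 and the amyloid precursor gene App differed less, at 2.42-fold and 2.21-fold lower. Prkg2, the type II cGMP-dependent kinase, was called with overlapping libraries at 2.08, 0.427, 0, 0 and 0.634 CPM in upper chandelier libraries and lowest 1.89, median 29.1 and highest 61.7 CPM in PV basket lane pairs.

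**Figure D1:**
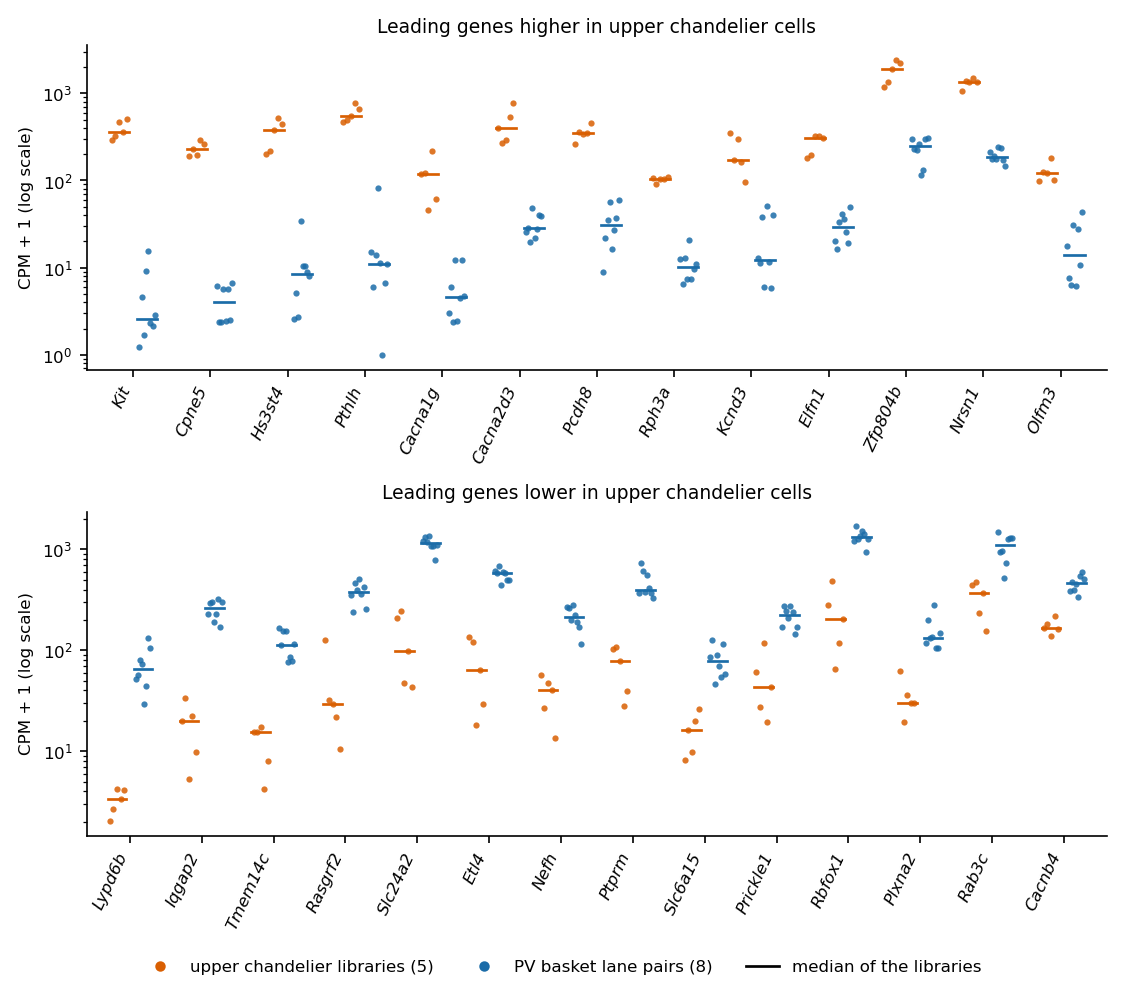
Each point is 1 upper chandelier library (orange, 5) or PV basket lane pair (blue, 8), with a bar at the group's median, on a log axis of CPM + 1 for 13 of the 14 leading genes called higher (top) and the 14 called lower (bottom). Libraries of both types do not overlap in these 27 genes, which the naming rule required, and Kit runs between 288 and 510.2 CPM in upper chandelier libraries against at most 14.6 CPM in PV basket lane pairs.

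Set against all 7 types, the leading genes were not all particular to upper chandelier cells. In 8 of the 14 leading higher genes, upper chandelier cells had the highest mean of the 7 types, and in 10 of 14 PV basket cells had the lowest. Kit, for example, averaged 381 CPM in upper chandelier and 71.8 CPM in deep chandelier cells, but 331 CPM in interneuron-selective, 595 CPM in CCK basket and 3.15 CPM in PV basket cells. In 6 of the 14 leading lower genes, upper chandelier cells had the lowest mean, and in 7 of 14 PV basket cells had the highest. Nrsn1 and Zfp804b had their highest means in both chandelier types. Zfp804b averaged 1747 CPM in upper chandelier, 1129 CPM in deep chandelier and 244 CPM in PV basket cells, and the other types lay between 47.7 and 277 CPM. These genes were chosen for their contrast with PV basket cells, so a low PV basket mean is what the choice favours.

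**Figure D2:**
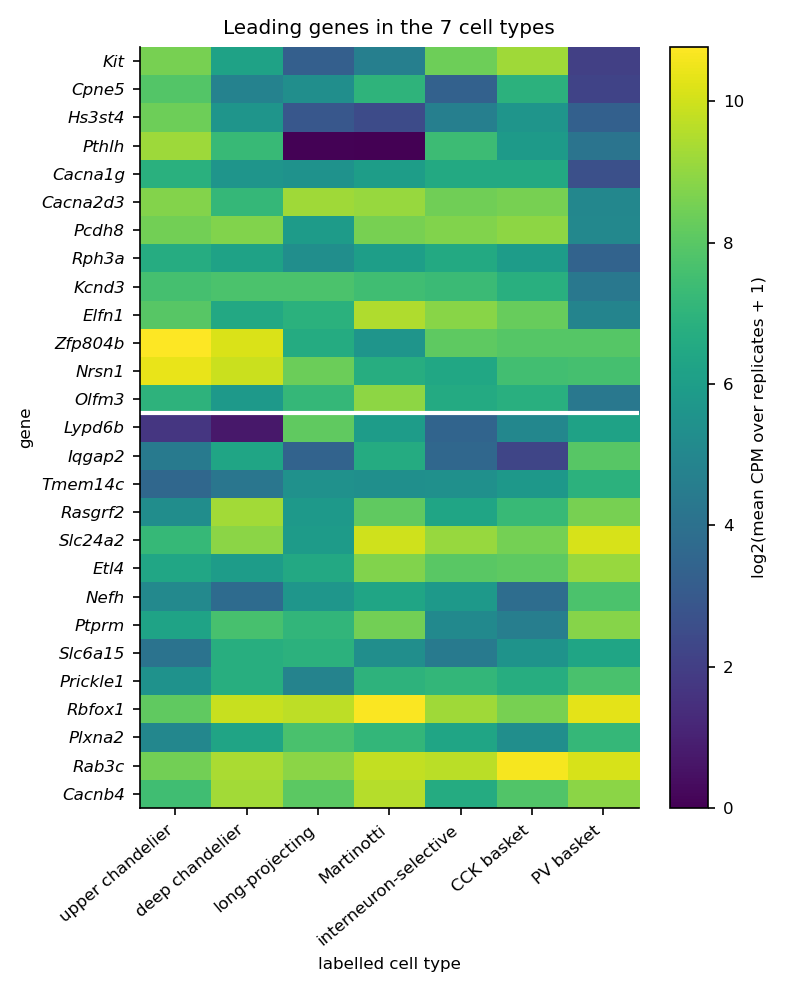
The colour gives log2 of the mean CPM over replicates plus 1 for 27 leading genes (higher genes above the white line, lower genes below it) in the 7 labelled cell types (columns, upper chandelier first and PV basket last). Cacna2d3 is at 143 CPM or more in the first 6 columns and at 30.7 CPM in PV basket cells, whereas Nrsn1 and Zfp804b are brightest in both chandelier columns.

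The calcium channel genes gave 6 higher and 4 lower of 18 tested in the library test (median log2 fold change 0.90), against 6.53% of all genes on each side. In the replicate test, 2 were higher and 1 lower of 23 tested (median 0.72). Cacna1g, the Cav3.1 T-type pore subunit that opens at low voltage, stood at 118, 119, 44.7, 216 and 60.8 CPM in upper chandelier libraries and lowest 1.39, median 3.60 and highest 11.4 CPM in PV basket lane pairs. It was 22.3-fold higher in upper chandelier cells (replicate test log2 fold change 4.41, SE 0.47, adjusted p = 0.000776). The T-type relative Cacna1i was higher by the library test, at 45.9 ± 4.93 CPM in upper chandelier and 10.5 ± 0.997 CPM in PV basket cells (SD, n = 2 each; adjusted p = 0.00814). Cacna1d, an L-type pore subunit, was also higher by the library test, with 324 CPM in upper chandelier and 149 CPM in PV basket cells (adjusted p = 0.0201). The P/Q-type pore subunit Cacna1a, which drives release at PV basket terminals, was lower, at 190.3, 180.0, 189, 165 and 174 CPM in upper chandelier libraries and lowest 216, median 256 and highest 318 CPM in PV basket lane pairs (library test adjusted p = 0.0117).

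The auxiliary subunits went in both directions. Cacna2d3, an alpha2delta subunit, stood at 398, 271, 291, 529 and 774 CPM in upper chandelier libraries, against lowest 18.4, median 27.4 and highest 47.3 CPM in PV basket lane pairs. It was 14.4-fold higher without overlap (replicate test log2 fold change 3.78, SE 0.40, adjusted p = 0.000776). Cacna2d2, the subunit's paralog, was the reverse at 21.8, 14.5, 49.1, 58.3 and 24.1 CPM in upper chandelier libraries and lowest 134, median 155 and highest 232 CPM in PV basket lane pairs (library test log2 fold change -2.38, adjusted p = 0.000110; replicate test adjusted p = 0.286). The beta subunit gene Cacnb4 fell 2.68-fold (replicate test adjusted p = 0.0330), with 49.2% of its counts in values that are not whole. Cacng2, known as stargazin for its role with AMPA receptors, was lower by the library test, at 132 CPM in upper chandelier and 332 CPM in PV basket cells (adjusted p = 0.000427).

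The Cacna2d3 promoter is shown because this gene passed the replicate test in each fit without 1 replicate or library; it held 1 match to the letters above, in capitals.
Cacna2d3, chr14:29721815-29722114, − strand: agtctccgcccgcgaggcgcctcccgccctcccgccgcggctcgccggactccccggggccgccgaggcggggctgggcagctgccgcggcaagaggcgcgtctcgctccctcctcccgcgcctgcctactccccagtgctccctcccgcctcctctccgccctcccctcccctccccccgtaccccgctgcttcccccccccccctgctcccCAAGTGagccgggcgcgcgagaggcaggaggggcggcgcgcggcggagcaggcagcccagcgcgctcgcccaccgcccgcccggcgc

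Voltage-gated potassium channel genes had 4 members higher and 9 lower of 32 tested in the library test (median log2 fold change -0.39), against 6.53% of all genes on each side. In the replicate test, 2 were higher and 0 lower of 41 (median -0.39), and 1423 of all genes had an unadjusted p under 0.05. The Kv4 pore genes, which carry A-type current, were the higher ones in both tests. Kcnd2 stood at 1071, 1203, 1133, 1506 and 1861 CPM in upper chandelier libraries and lowest 246, median 399 and highest 607 CPM in PV basket lane pairs, 3.31-fold higher (replicate test adjusted p = 0.0320). Kcnd3 averaged 194 ± 38.7 CPM in upper chandelier and 19.1 ± 4.53 CPM in PV basket cells (SD, n = 2 each, replicate test adjusted p = 0.0330). Of its counts, 45.7% lie in values that are not whole. The Kv4 partner Kcnip3 averaged 19.0 CPM in upper chandelier and 0.940 CPM in PV basket cells, and Kcnh6 299 and 72.1 CPM in the same order (library test adjusted p = 0.00184 and 0.000374).

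Kv1 genes, whose channels set spike threshold at the axon, were lower by the library test. Kcna1 (Kv1.1) stood at 30.1, 56.9, 57.8, 8.79 and 28.5 CPM in upper chandelier libraries and lowest 229, median 363 and highest 434 CPM in PV basket lane pairs, 9.26-fold lower (adjusted p = 7.66e-06; replicate test adjusted p = 0.167). Kcna2 (Kv1.2) stood at 182, 138, 122, 157 and 129 CPM in upper chandelier libraries and lowest 460.3, median 612 and highest 772 CPM in PV basket lane pairs, 4.36-fold lower (adjusted p = 4.58e-07; replicate test adjusted p = 0.0527). Both genes were separate between the types in every library. The Kv1 beta subunits Kcnab1 and Kcnab3 were 3.26-fold and 4.31-fold lower (library test adjusted p = 1.97e-05 and 0.000378). Of the Kv3 genes, whose fast channels let cells fire at high rates, Kcnc2 was lower at 386, 480.0, 366, 303 and 304 CPM in upper chandelier libraries and lowest 1135, median 1314 and highest 1628 CPM in PV basket lane pairs (library test adjusted p = 3.46e-07; replicate test adjusted p = 0.121). Kcnc1 averaged 371 ± 78.8 CPM in upper chandelier and 464 ± 87.1 CPM in PV basket cells (SD, n = 2 each) and passed neither test.

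Of 13 sodium channel genes in the library test, 3 were higher and 3 lower, against 6.53% of all genes on each side, and 0 of 15 passed the replicate test. Scn4b, a beta subunit that supports resurgent current in fast-firing neurons, had no count in the 5 upper chandelier libraries, against lowest 1.51, median 18.8 and highest 59.8 CPM in PV basket lane pairs. Against the floor of 3 counts over the type, 0.426 CPM, Scn4b was at least 56.8-fold lower (library test adjusted p = 0.00133). Scn8a (Nav1.6) was lower at 210.0 ± 24.4 CPM in upper chandelier and 437 ± 6.04 CPM in PV basket cells, whereas Scn2a1 (Nav1.2) was higher at 226 ± 21.7 CPM in upper chandelier and 84.8 ± 25.1 CPM in PV basket cells (SD, n = 2 each; library test adjusted p = 0.000295 and 0.00392, replicate test 0.356 and 0.0501). Fgf13, an intracellular factor that binds sodium channels, was 5.56-fold higher (library test adjusted p = 3.29e-06). The list of axon initial segment and node genes, which shares members with these families, gave 2 higher and 8 lower of 19 tested by libraries and 0 by replicates. Its scaffold gene Ank3 was lower by the library test (279 CPM in upper chandelier and 390.5 CPM in PV basket cells, adjusted p = 0.0447), and Nfasc averaged 88.7 and 136 CPM in the same order without passing (adjusted p = 0.231). The library test called 5 members of this list lower without upper chandelier library 1, without library 4 or without 1 PV basket lane pair, and 1 higher without library 3, 4 or 5 or either of 2 lane pairs.

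**Figure D3:**
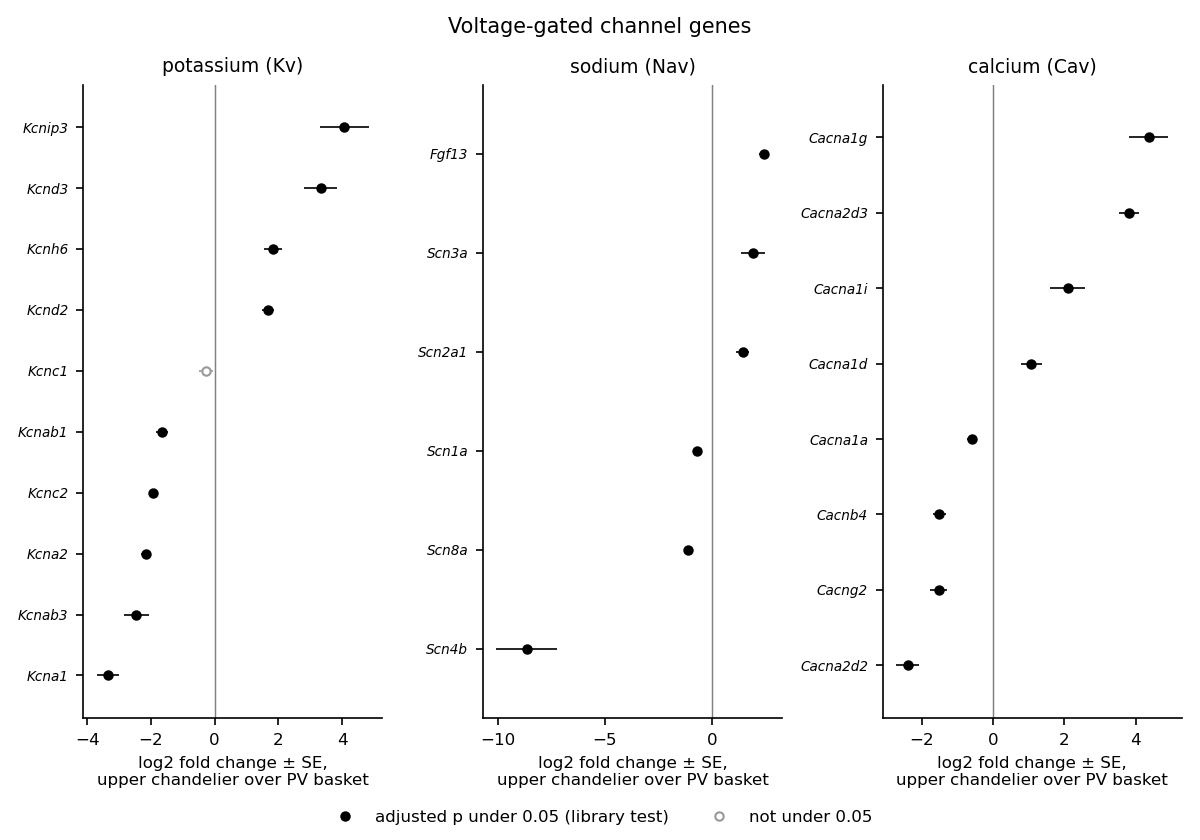
Points give the library test's log2 fold change with its SE (bars), upper chandelier over PV basket, for the potassium, sodium and calcium channel genes named in the text, filled where the adjusted p is under 0.05, so genes that passed are over-represented. Cacna1g and Cacna2d3 lie far right among calcium channel genes and Kcna1 far left among potassium channel genes; the fitted value of Scn4b, with no upper chandelier count, depends on the method's prior count and is no bound.

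Genes of transmitter release gave 8 higher and 4 lower of 45 tested by libraries (5 higher without upper chandelier library 3), against 6.53% of all genes on each side. By replicates, 1 was higher (Syn2) and 1 lower (Rab3c) of 46. Vesicle protein genes had partners on both sides. Vamp2 was higher at 458, 372, 435, 440.2 and 406 CPM in upper chandelier libraries and lowest 137, median 193 and highest 211 CPM in PV basket lane pairs, and Vamp1 lower at 18.7, 120.5, 43.6, 36.0 and 12.0 CPM in upper chandelier libraries and lowest 164, median 279 and highest 423 CPM in PV basket lane pairs. Neither synaptobrevin gene overlapped between the types (library test adjusted p = 7.09e-05 and 0.000641; replicate test 0.254 and 0.110). Of the synaptotagmins, the calcium sensors of release, Syt1 was higher at 3627, 4051, 3768, 4384 and 4013 CPM in upper chandelier libraries and lowest 1720, median 2133 and highest 2394 CPM in PV basket lane pairs. Syt2, the fast sensor known from PV basket terminals, was lower at 1.04, 2.56, 2.18, 2.40 and 11.4 CPM in upper chandelier libraries and lowest 26.9, median 49.4 and highest 154 CPM in PV basket lane pairs. Both sets of libraries were apart (library test adjusted p = 4.91e-05 for Syt1 and 0.000450 for Syt2; replicate test 0.111 and 0.0886). Syt7 and the complexin gene Cplx1 were lower by the library test with overlapping libraries (2.52-fold and 1.54-fold), and the vesicle gene Syp was 2.89-fold higher. By the replicate test, Rab3c fell 3.16-fold and Syn2 rose 2.19-fold, and 50.8% of Syn2 counts lie in values that are not whole.

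Slc32a1, the vesicular GABA transporter, was lower in upper chandelier cells by both tests. It stood at 1228, 1061, 1443, 1471 and 1426 CPM in upper chandelier libraries, against lowest 1967, median 2311 and highest 3531 CPM in PV basket lane pairs. The types did not overlap, and the replicate test gave a log2 fold change of -1.03 (SE 0.20, adjusted p = 0.0457). The GABA synthesis genes passed neither test: Gad1 averaged 2011 ± 85.7 CPM in upper chandelier and 1627 ± 3.04 CPM in PV basket cells, and Gad2 454 ± 102 and 571 ± 89.6 CPM in the same order. Dlx1, an interneuron transcription factor, rose 3.73-fold by the replicate test (adjusted p = 0.0233), but its reads cannot be told apart from those of the overlapping antisense gene Dlx1as.
The transporter's promoter is given as that of the gene for GABA loading that differed, with 1 match to the same letters in capitals.
Slc32a1, chr2:158610508-158610807, + strand: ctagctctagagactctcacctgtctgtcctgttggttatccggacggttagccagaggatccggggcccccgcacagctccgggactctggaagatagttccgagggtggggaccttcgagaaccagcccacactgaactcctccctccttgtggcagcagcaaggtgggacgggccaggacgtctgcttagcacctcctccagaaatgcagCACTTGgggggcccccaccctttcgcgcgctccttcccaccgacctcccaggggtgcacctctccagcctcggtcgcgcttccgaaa

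GABA-A receptor subunits were summed at 1435 to 1853 CPM in upper chandelier libraries and 2785 to 3297 CPM in PV basket lane pairs, without overlap. The library test called 5 of 12 lower and 1 higher (median log2 fold change -0.54), against 6.53% of all genes on each side. Without 1 PV basket lane pair it called 2 higher, and the replicate test called 0 of 15 (median -0.60). Gabra2, the alpha2 subunit, was the higher one at 36.4, 43.2, 18.5, 54.3 and 15.8 CPM in upper chandelier libraries and lowest 1.36, median 2.63 and highest 10.3 CPM in PV basket lane pairs (library test adjusted p = 0.00153). Gabra4, Gabra5 and Gabrb2 were 3.60-fold, 5.48-fold and 2.40-fold lower by the library test, and Gabra5 overlapped between the types.

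The 16 genes listed for perisomatic and axo-axonic synapses gave calls in the library test only. By that test 1 was higher (Fgf13) and 3 were lower (Lgi2, Cntnap4 and Ptpn5) of 15 tested, and by the replicate test 0 of 16. Over all genes tested, the library test called 13.1% and the replicate test 0.399%. Without upper chandelier library 5, or without 1 PV basket lane pair, 2 were called higher. The lower calls numbered 2 to 4 over the library tests without 1 library. Fgf13, Igsf11 and Lgi2 are also on the marker lists above, so their results are not new here. Erbb4, the neuregulin receptor of parvalbumin interneurons, averaged 2970 ± 670.1 CPM in upper chandelier and 2255 ± 10.7 CPM in PV basket cells (SD, n = 2 each; library test adjusted p = 0.218). Cntnap4, a neurexin-like gene of interneuron terminals, was 2.35-fold lower (library test adjusted p = 0.00403). Gphn, the gephyrin scaffold of inhibitory postsynapses, stood at 661, 473, 626, 374 and 606 CPM in upper chandelier libraries and lowest 261, median 1838 and highest 6442 CPM in PV basket lane pairs. PV basket lane pairs thus spread widely, from below the upper chandelier range to far above it, and their median lay above every upper chandelier library. Gphn missed both thresholds (adjusted p = 0.0535 by libraries and 0.0980 by replicates). The adhesion gene L1cam, the dystroglycan gene Dag1 and the dystrophin gene Dmd, and Iqsec3, Nrg1, Tacc3 and Igsf11 had means within 1.01-fold to 1.37-fold of each other, and Nlgn2 averaged 60.2 CPM in upper chandelier and 23.2 CPM in PV basket cells (library test adjusted p = 0.0639).

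**Figure D4:**
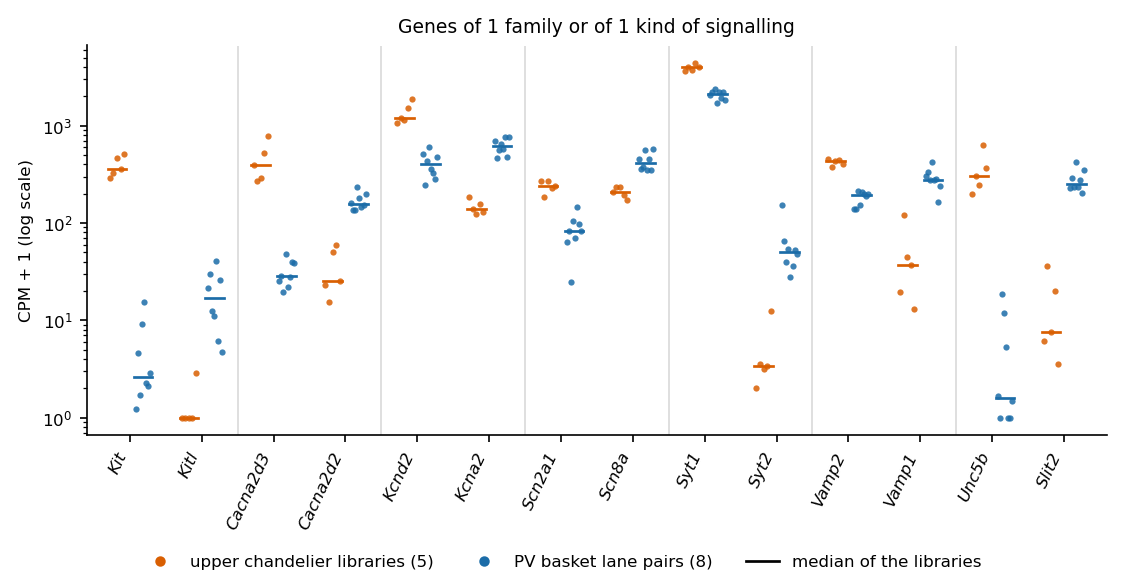
Points are 5 upper chandelier libraries (orange) and 8 PV basket lane pairs (blue) on a log axis of CPM + 1, with a bar at the median, for gene pairs of 1 family or of 1 kind of signalling, such as axon guidance. In each pair the left gene has the higher median in upper chandelier libraries and the right gene the higher median in PV basket lane pairs, for example Unc5b (up to 629.5 CPM in upper chandelier and 17.8 CPM in PV basket) beside Slit2. The pairs were chosen after their values were seen, so this opposition follows from the choice.

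Guidance genes differed in both directions. The secreted cue Slit2 stood at 5.20, 35.0, 6.54, 19.2 and 2.54 CPM in upper chandelier libraries and lowest 202, median 253 and highest 422 CPM in PV basket lane pairs, 15.4-fold lower (library test adjusted p = 1.58e-05; replicate test 0.218). Slit1, Slit3 and the Slit receptor Robo1 were lower by the library test as well, at 15.3-fold, 8.58-fold and 2.87-fold. Netrin receptor genes were on the higher side. Unc5b stood at 199.6, 306, 243, 629.5 and 365 CPM in upper chandelier libraries and lowest 0, median 0.573 and highest 17.8 CPM in PV basket lane pairs, 90.4-fold higher (library test adjusted p = 6.37e-05; replicate test 0.0926). Unc5c, Unc5d and Dcc were 2.66-fold, 3.07-fold and 3.14-fold higher by the library test. In all, 4 of the 15 Slit, Robo, netrin and Unc5 genes tested were higher and 4 lower by libraries, against 6.53% of all genes on each side. By replicates, 0 of 16 passed. Unc5c did not pass the library test without library 1 (adjusted p = 0.134, the highest of 13 fits without 1 library).

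Among secreted synaptic proteins, C1ql1, which binds adhesion receptors across the synaptic cleft, stood at 32.2, 39.8, 57.8, 17.6 and 18.4 CPM in upper chandelier libraries and lowest 0, median 0 and highest 0.711 CPM in PV basket lane pairs. It was near 0 in PV basket cells in every lane pair (library test adjusted p = 1.11e-05; replicate test 0.0532). Synaptic organizers as a whole gave 7 higher and 6 lower of 56 tested by libraries, against 6.53% of all genes on each side. By replicates, 2 of 59 were higher, Elfn1 and Clstn2.

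Genes of cyclic nucleotide and G-protein signalling leaned to the higher side. Of 48 RGS, cyclase and phosphodiesterase genes, the library test called 10 higher and 3 lower (median log2 fold change 0.35), against 6.53% of all genes on each side. Their sum was 4096 to 5202 CPM in upper chandelier libraries and 2707 to 3501 CPM in PV basket lane pairs. Pde4d, a cAMP phosphodiesterase, stood at 1150, 1227, 1166, 1107 and 1365 CPM in upper chandelier libraries and lowest 302, median 438 and highest 515 CPM in PV basket lane pairs (library test adjusted p = 1.62e-06; replicate test 0.180). Pde11a and Pde3a were 16.0-fold and 11.8-fold higher, and the G-protein inhibitors Rgs10 and Rgs3 10.3-fold and 6.82-fold higher. However, 65.7% of Rgs3 counts lie in values that are not whole. Rgs8 was the member called by the replicate test, at 10.4, 15.4, 5.45, 2.40 and 20.9 CPM in upper chandelier libraries and lowest 0, median 0.174 and highest 1.36 CPM in PV basket lane pairs, and was far higher in interneuron-selective cells (488 CPM).

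Calcium-binding genes leaned the other way, with 1 higher (2 without upper chandelier library 5 and 3 without 1 PV basket lane pair) and 6 lower of 19 tested by libraries. Over all genes, 6.53% were called on each side. The list summed to 6361 to 6910 CPM in upper chandelier libraries against 8004 to 9770 CPM in PV basket lane pairs. Calm3, a calmodulin gene, fell 2.48-fold by the replicate test, at 891, 802, 621, 752 and 568 CPM in upper chandelier libraries and lowest 1444, median 1832 and highest 2172 CPM in PV basket lane pairs (adjusted p = 0.0330). Vsnl1, a neuronal calcium sensor, was 3.06-fold lower and its relative Hpca, hippocalcin, 7.21-fold higher (library test adjusted p = 2.66e-05 and 8.94e-06). Calb1, calbindin, averaged 75.3 ± 62.7 CPM in upper chandelier and 219 ± 53.0 CPM in PV basket cells (SD, n = 2 each) and passed neither test.

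Neuropeptide and granin genes gave 5 higher and 5 lower of 21 tested by libraries, peptide receptors 3 and 1 of 12, acetylcholine receptors 3 and 1 of 7, and monoamine receptors 2 and 0 of 12. Over all genes, the library test called 6.53% on each side. The monoamine receptor calls did not all hold in 11 of 13 fits without 1 library, and other counts of 1 moved to 0 or 2 without single libraries. The granin genes Scg2 and Scg5, cargo and helper of dense-core vesicles, were 2.60-fold and 2.27-fold higher, and Cartpt and Crhbp 19.3-fold and 9.74-fold lower, all by the library test. Adm, adrenomedullin, had no upper chandelier count against lowest 4.15, median 30.7 and highest 71.5 CPM in PV basket lane pairs, at least 72.8-fold lower. The tachykinin receptor Tacr1 was 14.0-fold higher, at 234, 117, 69.8, 339 and 98.9 CPM in upper chandelier libraries and lowest 0, median 7.74 and highest 55.3 CPM in PV basket lane pairs. Muscarinic receptors were split: Chrm1 averaged 55.5 ± 17.0 CPM in upper chandelier and 10.0 ± 3.16 CPM in PV basket cells, and Chrm2 13.6 ± 2.22 and 60.7 ± 5.00 CPM in the same order (SD, n = 2 each; library test adjusted p = 0.00453 and 0.0242). No gene named in this paragraph passed the replicate test.

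Lineage regulators of the medial eminence differed within a shared background. Lhx6, which keeps the identity of these interneurons, was 2.49-fold higher at 209, 209, 185, 319 and 193 CPM in upper chandelier libraries and lowest 69.8, median 88.8 and highest 115 CPM in PV basket lane pairs (library test adjusted p = 0.000522). Satb1, which acts in their maturation, was lower at 58.2, 49.6, 44.7, 50.3 and 2.54 CPM in upper chandelier libraries and lowest 288, median 329 and highest 478 CPM in PV basket lane pairs (library test adjusted p = 9.85e-05; replicate test 0.527). Sp9 was 2.63-fold higher, and 0 of the 8 genes listed for this lineage passed the replicate test. The library test called 2 of the 8 higher and 2 lower, against 6.53% of all genes on each side. It called 1 higher without upper chandelier library 3, 4 or 5, and also without some single PV basket lane pairs.

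Immediate early genes, which respond to activity and to handling of tissue, were higher in upper chandelier cells and uneven among their libraries. The library test called 7 of 13 higher and 0 lower, against 6.53% of all genes on each side, and the replicate test 1 of 18, Egr1. Egr1 stood at 10.4, 262, 429.8, 728 and 1759 CPM in upper chandelier libraries and lowest 0, median 17.2 and highest 67.7 CPM in PV basket lane pairs, so library 1 lay within the PV basket range and library 5 far above it (replicate test adjusted p = 0.0273; 0.208 without library 2, in a range of 0.00476 to 0.458 over fits without 1 replicate or library). Fos stood at 684, 1016, 969.7, 1367 and 3612 CPM in upper chandelier libraries and lowest 0.942, median 81.3 and highest 279 CPM in PV basket lane pairs, without overlap (library test adjusted p = 0.00271). Without library 5 the library test called 3 of these genes. Age, layers sampled and flow cell moved with type, and their part in this difference was not tested.

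Upper chandelier library 1 stood apart in genes of another interneuron class. Vip stood at 374, 0, 0, 0 and 0 CPM in upper chandelier libraries, with 360 counts in library 1 and 0 in libraries 2 to 5. Cells of a library were close to sampling noise, so library 1 is 1 value here. The caudal lineage genes, which mark interneurons of the caudal eminence, summed to 2676 CPM in library 1 and 60.8 to 243 CPM in libraries 2 to 5, against 74.3 to 207 CPM in PV basket lane pairs. Cnr1 stood at 794, 0, 1.09, 8.79 and 0 CPM and Prox1 at 40.5, 0, 1.09, 0 and 0 CPM in upper chandelier libraries. Adarb2, an RNA editing family gene of the caudal lineage, was called higher by the replicate test (adjusted p = 0.0330) at 1638, 62.0, 60.0, 226 and 57.7 CPM in upper chandelier libraries and lowest 15.9, median 32.1 and highest 67.9 CPM in PV basket lane pairs, and not without library 1 (adjusted p = 0.275) or library 4 (0.107), in a range of 0.00801 to 0.543 over fits without 1 replicate or library. Without library 1 the library test called 681 genes higher and 723 lower, and Kit, Cpne5, Cacna1g and Cacna2d3 each passed, with adjusted p of at most 0.000177.

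**Figure D5:**
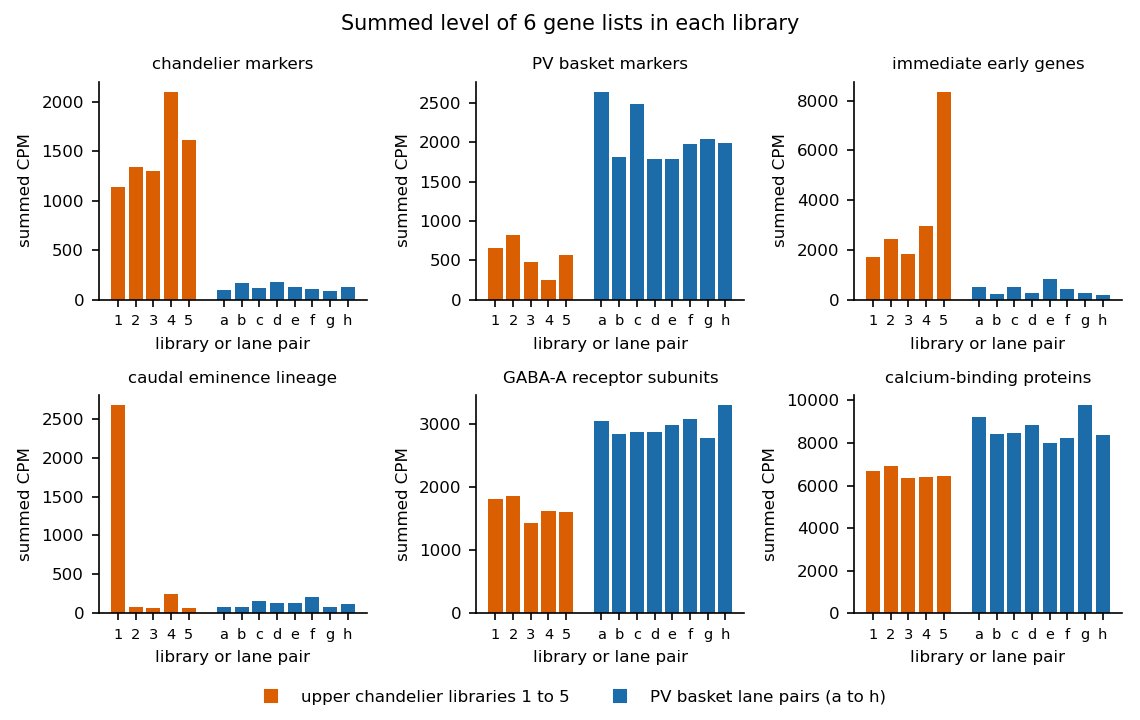
Bars from 0 give the summed CPM of 6 gene lists in upper chandelier libraries 1 to 5 (orange) and PV basket lane pairs a to h (blue). Chandelier markers are higher (1141 to 2102 CPM) and GABA-A subunits lower (1435 to 1853 CPM) in each upper chandelier library, while library 1 stands alone in caudal lineage genes (2676 CPM) and library 5 in immediate early genes (8350 CPM).

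Markers of cells other than interneurons were low and similar. Pyramidal neuron markers summed to 109 to 166 CPM in upper chandelier libraries and 58.8 to 122 CPM in PV basket lane pairs, astrocyte markers to 75.8 to 214 and 51.2 to 297 CPM in the same order, and oligodendrocyte markers to 27.0 to 141 and 27.3 to 132 CPM. Microglial markers summed to 4.79 to 58.9 CPM in upper chandelier libraries and 2.35 to 37.7 CPM in PV basket lane pairs, and endothelial markers to 8.40 to 37.4 and 8.19 to 79.3 CPM. None of the tested members of these 5 lists passed either test. Sex-linked genes followed the labels in part: Eif2s3y, a Y-linked gene, had no upper chandelier count against lowest 0.455, median 22.5 and highest 69.2 CPM in PV basket lane pairs, and Xist stood at 214, 236, 231, 230.1 and 224 CPM in upper chandelier libraries against lowest 63.2, median 99.5 and highest 162 CPM in PV basket lane pairs. Ddx3y, also Y-linked, was nonetheless listed at 42.6, 32.9, 24.0, 33.5 and 29.8 CPM in the upper chandelier libraries, all labelled female. Reads it may share with its X-linked relative Ddx3x were not checked, so this level is uncertain.

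Long-projecting cells came from male mice labelled Sst-Flp, Nos1-Cre and Ai65, aged 28 or 29 days, and shared a flow cell with upper chandelier cells. Sex, age and driver lines still followed type here. The comparison of these types called 633 genes (4.08%). Kit averaged 381 CPM in upper chandelier and 8.49 CPM in long-projecting cells, and Nrsn1 1346 and 327 CPM in the same order. Both of these genes were called. Cpne5 averaged 236 and 39.2 CPM in the same order and was not called (replicate test adjusted p = 0.1012). Cacna2d3 averaged 441 CPM in upper chandelier and 601 CPM in long-projecting cells, and Kcnd3 194 and 210.3 CPM. Neither was called (replicate test adjusted p = 0.3902 and 0.8659). Deep chandelier cells, from male Nkx2.1-CreER; Ai14 mice aged 34 days, differed from PV basket cells in 1073 genes (6.91%) and from upper chandelier cells in 440 (2.83%). Kit averaged 381 CPM in upper and 71.8 CPM in deep chandelier cells, a log2 difference of 2.11 (replicate test adjusted p = 0.0477). Rasgrf2 averaged 38.2 CPM in upper and 613 CPM in deep chandelier cells (adjusted p = 0.00351). These comparisons share samples with the one against PV basket cells and are set beside it only as values.

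The replicate test rests on few animals. Without 1 of the 4 upper chandelier or PV basket replicates it called 7 to 18 genes higher and 0 to 7 lower, and Kit, Cacna1g, Cacna2d3, Nrsn1 and Ndn passed in each of the 29 fits without 1 replicate or library.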

How the data were processed

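RNA of 80 upper chandelier and 127 PV basket cells was compared as library sums. The authors deposited 1 table of expected counts (estimated counts per gene and cell) for 23335 genes. Values were not normalized, 3813 genes had no count in any cell, and 4.07% of positive values were not whole. The submitters' processing notes name Bowtie 0.12.7 and the mm9 build, and no source used here says whether a count is a read or a molecule. Counts were summed per library and replicate and rounded to whole numbers. The ribosomal RNA precursor Rn45s took 0.786% of counts, and 75 genes with a row identical to another gene's were not named.

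In the replicate test, edgeR 4.0.16 (R 4.3.3) fitted 16 replicates of 7 types with TMM scaling, its default filter on low counts and a robust quasi-likelihood test (9 residual degrees of freedom). Its common dispersion of 0.381 equals a 61.7% coefficient of variation between replicates. Adjusted p-values are Benjamini-Hochberg values over all genes tested, and calls have an adjusted p under 0.05. The library test used the same edgeR steps on 5 libraries and 8 lane pairs, with 11 residual degrees of freedom. Both tests are two-sided. The edgeR and limma fits were tried on simulated counts, in which libraries shared no animal effect. Alternatives used limma 3.58.1, DESeq2 1.42.0, other scaling, filters, replicate units and samples left out. Python 3.11.15, pandas 2.3.3, numpy 2.4.6 and matplotlib 3.10.9 did the sums and plots. The labels name 2 upper chandelier animals and 4 PV basket animals. Totals and floors of 3 counts describe counting error only. No strand is stated for the counting, so overlapping genes cannot be separated.

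Named genes were the drivers Nkx2-1 and Pvalb, and, on each side, the 14 called genes with the largest log2 fold change. These had at least 50 CPM in the higher type, no overlap between libraries of both types, a usual symbol and no identical row. Up to 4 called members of at least 20 CPM were added per list, with all members of the chandelier, PV basket and perisomatic lists. Other list members were chosen after their values were seen. The members compared and the 44 gene lists were chosen with earlier results of these data known. Some genes are left unreported here.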

Additional observations from a re-analysis of the deposited data

Results flagged for a closer look

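For 173 genes, a library far from the others of its type was looked for with Dixon's test, whose ratio is the gap to the nearest library over the whole range. Among 341 sets of libraries, 41 passed, 23 in upper chandelier libraries and 18 in PV basket lane pairs. Chance alone passes about 1 in 20 if values are normally distributed. CPM was not transformed, and some sets have counts in a single library, so this rate may not hold here.

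Upper chandelier library 1 was the high one for the caudal lineage genes Vip (ratio 1), Cnr1 (0.989), Prox1 (0.973) and Adarb2 (0.893), and also for Epha7 (0.814), Rasgrf2 (0.812) and Cntnap4 (0.773). Library 5 was the high one for the activity genes Fos (0.767), Nr4a1 (0.817), Egr4 (0.817) and Jund (0.79), as well as Kitl (1), Cckbr (0.916), Syt2 (0.853) and Clstn2 (0.738), and the low one for Satb1 (0.757). Library 2 was high for Tpbg (1), Gfra2 (0.964), Cplx1 (0.818) and Tacc3 (0.772), library 3 for Kcnc1 (0.74), and library 4 for Cox7c (0.892) and Lhx6 (0.823).

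A single PV basket lane pair was high for Vip and Prox1 (1 each), Pthlh (0.826), Hs3st4 (0.753), Syt2 (0.707), Vipr2 (0.687), Scg2 (0.626), Fos (0.618), Nefm (0.603), Calb1 (0.597), Sema3c (0.595), Rgs3 (0.566), Scn3a (0.555), Rph3a (0.551) and Cox6c (0.539). A single lane pair was low for Kcna1 (0.561), Syt7 (0.553) and Scn1a (0.536), and it was the same lane pair for these 3 genes.

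Upper and deep chandelier cells, each set against the same PV basket cells, differed by the replicate test of the difference itself in 20 of these genes. The log2 difference, upper minus deep, was positive for Egr4 (5.94), Kit (2.11) and Cntnap5b (1.93). It was negative for the Ras exchange factor Rasgrf2 (-4.32), the opioid receptor Oprm1 (-3.40), Slc6a15 (-3.01), Cacnb4 (-2.15), Rbfox1 (-2.04), Kcnab1 (-1.95), Ptprd (-1.77), Gad2 (-1.73), Ptprm (-1.71), Plxna2 (-1.63), Scn2a1 (-1.35), Syt7 (-1.34), Rab3c (-1.26) and Syn2 (-1.16). The sex-linked genes Xist (13.02), Eif2s3y (-12.47) and Ddx3y (-4.66) differed too, and upper chandelier animals were labelled female and deep chandelier animals male. Age and flow cell also differ between these types and cannot be told apart from them.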

How the results depend on the processing

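No named gene past the threshold changed direction under the alternatives run. Counts of called genes moved. Against 41 higher and 21 lower genes in upper chandelier cells, a fit of upper chandelier and PV basket replicates alone called 346 and 330, DESeq2 264 and 140, 18 labelled animals 274 and 118, and libraries 785 and 786. A fit with replicate block on library numbers 1 to 5 called 511 and 502 and kept 56 of the 62 calls; same-numbered libraries deviated with correlations of -0.00575 to 0.0146, so the numbers do not pair them. With the animal as a random block in limma (chosen after seeing the data; correlation of -0.06125) 990 and 887 genes were called. Other size factors gave 43 and 22, and no filter 44 and 30. Fits without 1 replicate gave 7 to 80 higher and 0 to 49 lower genes: 8 and 1, and 7 and 0, without either PV basket replicate, 18 and 7, and 12 and 0, without either upper chandelier animal, 21 to 32 and 2 to 4 without 1 long-projecting replicate, and 72 and 49, and 80 and 49, without either deep chandelier replicate. The cause was not tested. Library tests without 1 library (chosen after seeing the data) gave 613 to 815 higher and 619 to 752 lower genes, and 893 of 1571 genes passed in all 13. For other comparisons, DESeq2 called 554 and 717 genes (320 and 313 by edgeR) in upper chandelier against long-projecting cells and the types alone 1012 and 1287; it called 1485 and 1230 (483 and 590) in deep chandelier against PV basket cells, and 968 and 1132 (273 and 167) in upper against deep chandelier cells. Low counts limit genes such as Tpbg and Prkg2, and 2 animals per type limit every replicate p.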

Other observations

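Genes of oxidative phosphorylation, which build the respiratory chain and ATP synthase, were called mostly on the lower side in upper chandelier cells by the library test, with 5 higher and 16 lower of 81 tested (median log2 fold change -0.21), and 0 of 83 passed the replicate test. Over all genes, the library test called 6.53% on each side, so the 5 higher genes are close to that share. Their summed level was 31120 to 35440 CPM in upper chandelier libraries and 34430 to 42940 CPM in PV basket lane pairs, so the sums overlapped. The cytochrome oxidase gene Cox6c stood at 872, 917, 941, 900.3 and 826 CPM in upper chandelier libraries and lowest 1327, median 1588 and highest 2430 CPM in PV basket lane pairs, 1.85-fold lower without overlap (library test adjusted p = 0.000295; replicate test 0.534). Ndufa6, a complex I subunit, was 1.71-fold lower (library test adjusted p = 0.000242). Without upper chandelier library 1, 11 of these genes were called lower, and without library 2, 3 or 4, 2 were called higher (3 without either of 2 PV basket lane pairs). Cytosolic ribosomal protein genes gave 12 higher and 12 lower of 81, but 7 higher without library 3, 20 higher without 1 PV basket lane pair and 7 lower without library 5.

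No gene of this paragraph passed the replicate test, and those named were chosen after their values were seen. The counts called here by the library test stand beside 6.53% of all genes on each side. Ephrins and Eph receptors summed to 1323 to 1580 CPM in upper chandelier libraries and 794 to 1214 CPM in PV basket lane pairs, with 3 of 13 tested genes higher and 3 lower. The receptor gene Epha5 stood at 550.1, 667, 485, 752 and 821 CPM in upper chandelier libraries and lowest 212, median 274 and highest 384 CPM in PV basket lane pairs (library test adjusted p = 0.000299; replicate test 0.112). Epha7 was 6.93-fold lower with overlapping libraries, and 48.3% of its counts lie in values that are not whole. TGF-beta, BMP, FGF and Wnt signals gave 4 higher and 1 lower of 24 tested by libraries (2 lower without upper chandelier library 1 or 5 or 1 PV basket lane pair). Tgfb3, a TGF-beta ligand gene, was 5.43-fold higher and the ligand gene Wnt5a 18.4-fold higher, both without overlap (adjusted p = 7.99e-05 and 0.0113). Perineuronal net and matrix genes gave 2 higher (1 without library 1) and 2 lower of 15. Hapln4, which links perineuronal net proteins to hyaluronan, was 4.55-fold lower at 32.2, 41.5, 10.9, 13.6 and 8.87 CPM in upper chandelier libraries and lowest 97.1, median 112 and highest 142 CPM in PV basket lane pairs (adjusted p = 0.000215). The secreted protease gene Adamts1 had no upper chandelier count and was at least 20.9-fold lower (adjusted p = 0.000303). Ionotropic glutamate receptor genes gave 1 higher and 3 lower of 17, with 1 lower without library 3 or 4 or either of 2 lane pairs, and 2 higher without 1 lane pair. The AMPA receptor gene Gria3 was 1.96-fold lower without overlap (adjusted p = 0.00184). Of the 44 gene lists, 6 had a summed level above and 3 below that of every PV basket lane pair in all 5 upper chandelier libraries.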
